A study of Mus musculus with 2 samples.

Results

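The cells described here are the aortic endothelial cells (ECs) of Apoe-/- mice, the cells that line the lumen of the aorta and of the small vessels in its wall. They were taken as all barcodes that the authors' deposited annotation places in the class ECs, after trailing spaces in the class names were removed. There were 594 of them, 366 in the control library and 228 in the diabetic library, among 5584 barcodes with a class and 7673 barcodes in all. The study profiled aortae by droplet single-cell RNA sequencing (10x Genomics 3' v2), in which each molecule is counted by a unique molecular identifier (UMI). Both groups were male C57BL/6 mice lacking Apoe, so the loss of apolipoprotein E, which raises plasma cholesterol, was shared by the controls. The diabetic group received streptozotocin, a toxin of the insulin-producing beta cells, at 55 mg/kg on each of 5 days from 6 weeks of age, and the control group received citrate vehicle on the same days. Aortae were taken after 10 weeks, at 17 weeks of age, digested enzymatically, and live cells were sorted by 7AAD and Calcein staining. Each group is 1 library made from 4 pooled mice. There is therefore no replicate, and every difference between the groups is a difference between 2 libraries.

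Large-artery endothelium carries adherens junctions built on VE-cadherin and PECAM1, gap junctions of connexins 37 and 40, and the machinery that makes nitric oxide under flow. Capillary endothelium of the vasa vasorum and surrounding fat takes up lipid through CD36, FABP4 and the lipase anchor GPIHBP1, whereas lymphatic endothelium is set by PROX1 and makes LYVE1 and CCL21. In diabetes and atherosclerosis, endothelium is known for NF-kappaB driven adhesion molecules such as ICAM1 and VCAM1, for immediate early transcription factors of the AP-1 family, and for stress of the endoplasmic reticulum.

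The ECs held 1093038 UMIs in the control library and 853881 in the diabetic library, with medians of 2867 and 3504 UMIs and of 1294 and 1461 genes per cell. Mitochondrial transcripts took a median of 2.66% and 2.83% of UMIs, and ribosomal protein transcripts took 19.0% and 22.2% of the summed EC UMIs. No EC barcode occurred in both libraries. Levels below are CPM, the summed UMIs of a gene per 1000000 summed UMIs of all genes in the ECs of a library, and a ratio is the diabetic CPM over the control CPM. The ranges after a ratio or share are exact 95% intervals for counting error alone and do not cover variation between mice. A gene is called higher or lower where its ratio is at least 1.5-fold and its interval excludes 1, among genes with at least 10 UMIs over both EC sums.

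The 4 markers listed for the class all stood far above their level in other classes. Pecam1, the junctional adhesion molecule of endothelium, was at 3552 CPM in control ECs and 3122 in diabetic ECs, against at most 117 CPM in any other class and library (VSMCs-1, control). Cdh5, encoding VE-cadherin (chr8:104101625-104144511, plus strand, GRCm38), was at 457 and 479 CPM, against at most 13.0 elsewhere. Egfl7, a secreted factor of endothelial cells, was at 1177 and 1227 CPM, against at most 14.5 elsewhere. Cytl1, a secreted cytokine-like protein, was at 12708 and 10021 CPM in ECs but was less restricted, with 1851 and 1116 CPM in the class Fib-2 and 598 and 515 in Fib-1. The classes came from clustering these same cells, so these levels describe the class and test nothing. Between the libraries none of the 4 markers was called, with ratios of 0.879 for Pecam1 (0.836 to 0.924), 1.05 for Cdh5 (0.918 to 1.20), 1.04 for Egfl7 and 0.789 for Cytl1.

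**Figure D1:**
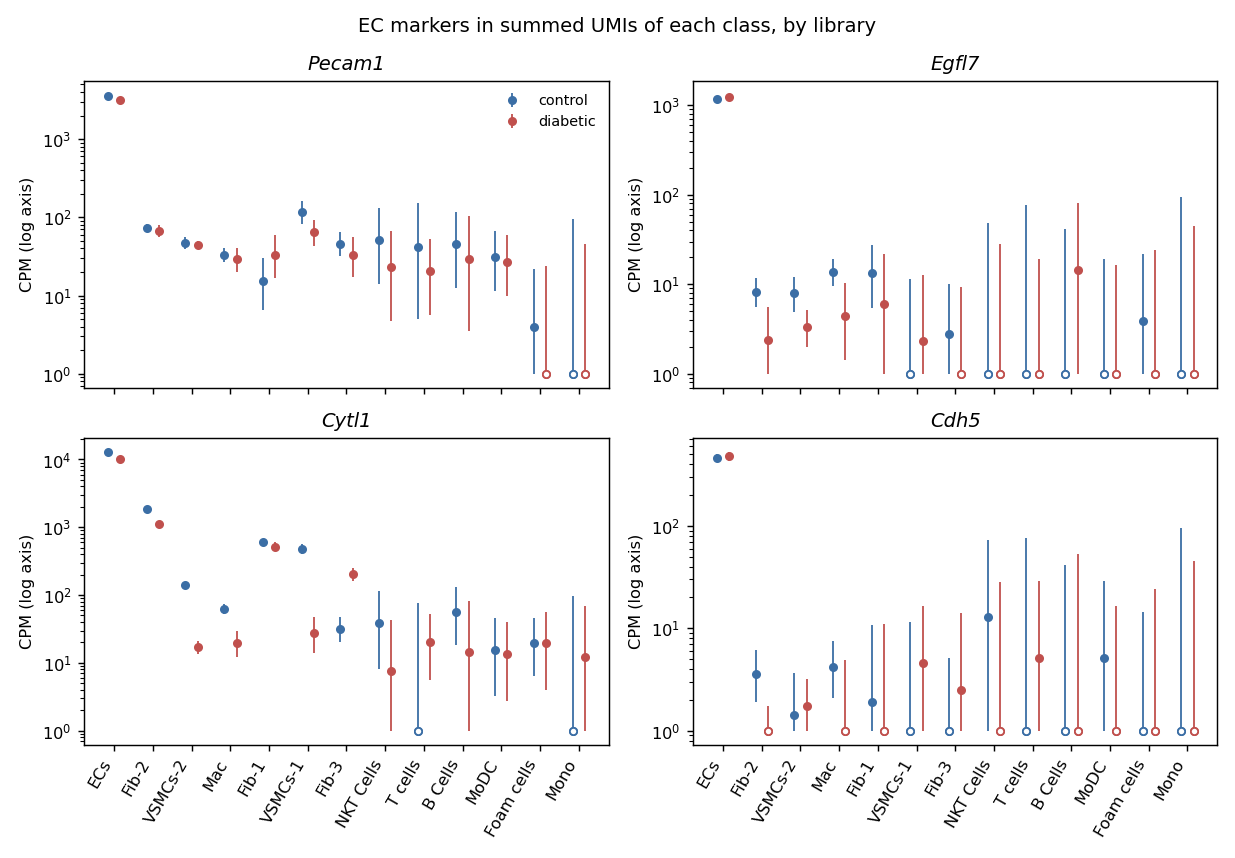
The 4 panels show Pecam1, Egfl7, Cytl1 and Cdh5 in summed UMIs of each class, in CPM on a log axis, with control in blue, diabetic in red, 95% Poisson intervals as bars and open circles for classes below 1 CPM, drawn at 1. ECs lie far above every other class for Pecam1 (3552 and 3122 CPM), Egfl7 and Cdh5, while Cytl1 also reaches 1851 CPM in Fib-2 of the control library.

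At the level of single cells, all 4 markers were detected in 61.2% of control and 66.7% of diabetic ECs, and 3 of them in 31.1% and 24.1%. Only 1 marker was detected in 5 control and 9 diabetic ECs, and no EC lacked all 4 (0 of 366 and 0 of 228, with upper 95% limits of 1.003% and 1.60%). Among the other annotated cells, 18 of 2694 control cells (0.668%) and 3 of 2296 diabetic cells (0.131%) had 3 or more. With every cell thinned to 1000 UMIs, which leaves out 23 control and 8 diabetic ECs below that depth, Pecam1 was found in 92.4% and 86.8% of ECs. In the smooth muscle class VSMCs-2, with median depths of 5547 and 6523 UMIs before thinning, it was found in 3.83% and 3.86%. Cdh5 was found in 35% and 33.6% of thinned ECs and in none of the 496 and 856 VSMCs-2 cells.

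The genes that stood highest over the next class, among those with at least 100 UMIs in ECs, joined general endothelial genes to genes of large arteries. The next class was taken among the 6 other classes with at least 50 cells in each library, so the smaller immune classes were left out. Cldn5, the tight junction protein of endothelium, was at 646 CPM over all ECs and 206-fold above the next class, and Tie1, an orphan receptor of the angiopoietin system, was 191-fold above it. Emcn, a sialomucin of the endothelial surface, stood 138-fold above and Podxl, a related anti-adhesive sialomucin, 127-fold above. Gja5, which encodes the arterial connexin 40, was at 408 CPM, 170-fold above the next class. Gkn3 was at 783 CPM (167-fold), Stmn2 at 462 CPM (129-fold) and the secreted protease Klk10 at 524 CPM (112-fold). Serpina1b, of the alpha-1-antitrypsin family, stood 212-fold above Fib-2, although 3' counts can be divided among its near-identical copies. Ccl21a, the lymphatic chemokine and also a member of a multigene family, reached 456 CPM from only 3 control and 5 diabetic ECs.

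Blood endothelial markers had UMIs in 365 of 366 control and 227 of 228 diabetic ECs, and lymphatic markers in 67 and 57. The summed blood endothelial markers were at 4829 CPM in control and 4419 CPM in diabetic ECs (ratio 0.915), the arterial markers at 1650 and 1501 CPM (0.910) and the venous markers at 1094 and 1110 CPM (1.01). Vwf, the von Willebrand factor gene, was at 815 and 769 CPM and was detected in 79.8% and 80.3% of ECs. The lymphatic marker sum was at 505 and 992 CPM (1.96; 1.76 to 2.19), and 36.6% and 42.7% of its UMIs came from a single cell in each library. The capillary marker sum was at 1506 and 2398 CPM (1.59; 1.49 to 1.70). Of these endothelial sums, the lymphatic and capillary ones passed 1.5-fold and the others did not.

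These differences lay in few cells. At least 3 of 9 lymphatic markers were detected in 4 control ECs (1.09%) and 8 diabetic ECs (3.51%). At least 2 of the capillary genes Gpihbp1, Car4, Rgcc, Kdr and Cd36 were detected in 11 control ECs (3.01%) and 24 diabetic ECs (10.5%), a difference of 7.52 percentage points (3.46 to 12.4). The sets overlap, since 2 control and 6 diabetic cells met both rules, and the capillary-marker cells held 525 of the 526 diabetic Ccl21a UMIs. Most of these cells had little or no Cytl1. A limit of 2000 CPM of Cytl1, chosen after the values were seen, marks a range of cells and not a type, with 29 control and 23 diabetic ECs between 1000 and 4000 CPM. Below it lay 35 control ECs (9.56%; 6.75 to 13.0) and 43 diabetic ECs (18.9%; 14.0 to 24.6), a difference of 9.30 points (3.59 to 15.5). All 12 cells with at least 3 lymphatic markers were below it, as were 8 of the 11 and 22 of the 24 capillary-marker cells. Cytl1-low ECs were not deeper, with medians of 2529 and 2414 UMIs against 2883 and 3639 in the Cytl1-rich ECs.

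**Figure D2:**
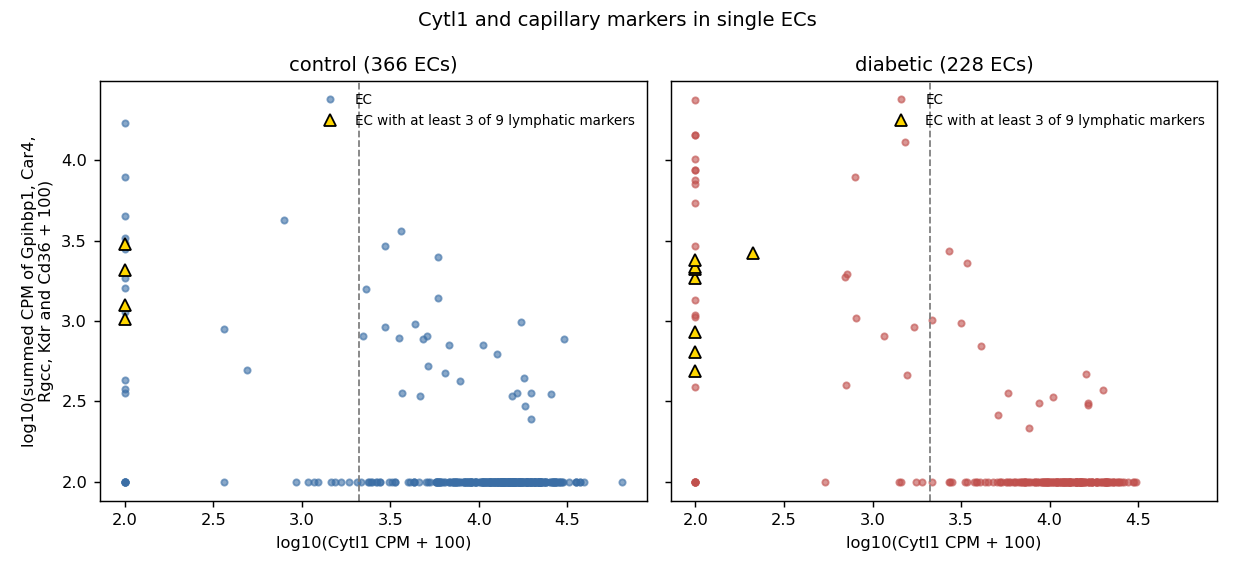
Each point is 1 EC, with log10(Cytl1 CPM + 100) on the horizontal axis and log10 of the summed CPM of Gpihbp1, Car4, Rgcc, Kdr and Cd36 (+ 100) on the vertical axis, for 366 control ECs (left) and 228 diabetic ECs (right). Triangles are ECs with at least 3 of 9 lymphatic markers (4 control, 8 diabetic), and all of them lie left of the dashed line at 2000 CPM of Cytl1, as do most cells with high capillary genes.

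The Cytl1-low cells carried different genes from the rest of the class. Ccl21a was at 3345 CPM in control and 3705 CPM in diabetic Cytl1-low ECs and at 0 UMIs in Cytl1-rich ECs of both libraries. Gpihbp1, which carries lipoprotein lipase across capillary endothelium, was at 250 and 810 CPM in Cytl1-low ECs, and had 1 UMI in control and 0 in diabetic Cytl1-rich ECs. The connexin 40 gene Gja5 showed the opposite arrangement, at 92.7 and 42.3 CPM in Cytl1-low and 497 and 406 CPM in Cytl1-rich ECs. Pecam1 was present in both ranges, at 1640 and 1331 CPM in the Cytl1-low and 3762 and 3479 CPM in the Cytl1-rich ECs. In capillary-marker cells Gja5 and Klk10 were at 0 UMIs in both libraries, and in lymphatic-marker cells Gja5, Flt1 and Selp were at 0.

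Markers of other cell types were also counted in ECs. Macrophage markers summed to 383 CPM in control and 186 CPM in diabetic ECs (0.486), with UMIs in 173 and 40 cells. A single cell held 36.8% of the control sum, and another held 42.8% of the diabetic sum. C1qa, a complement gene of macrophages, went from 85 to 7 UMIs. Fibroblast markers were at 1222 and 933 CPM (0.764) and smooth muscle markers at 659 and 800 CPM (1.21). Pi16 held 567 of the 1336 control and 295 of the 797 diabetic fibroblast-marker UMIs. There were 1.18 and 0.878 Pi16 UMIs per Dcn UMI in ECs. These values were 0.123 and 0.0813 in Fib-2, 0.148 and 0.0982 in Fib-1, and 0.596 and 0.490 in Fib-3. The sum in ECs thus differed in make-up from these classes, and its source was not tested. Haemoglobin transcripts took 0.798% and 0.758% of EC UMIs, and 1 EC in each library held most of them. The defining T cell genes Cd3d, Cd3g and Trac, the natural killer gene Nkg7, the B cell genes Cd79b and Ms4a1, and the muscle gene Des had 0 UMIs in ECs of both libraries. Platelet markers had 67 UMIs in 48 control ECs and 6 UMIs in 6 diabetic ECs (61.3 and 7.03 CPM, 0.115; 0.0406 to 0.263). Most of these UMIs were of Pf4 (61 and 6), a chemokine gene of platelets that macrophages also express, and Ppbp was at 0 in both libraries. Neutrophil markers reached 236 UMIs in diabetic ECs, 98.7% of them in 1 cell, against 11 in control ECs.

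ECs made up 12% of the annotated control cells (10.8 to 13.2) and 9.03% of the annotated diabetic cells (7.94 to 10.2), a difference of -2.93 percentage points (-4.52 to -1.31). With the smooth muscle classes taken out of the denominator the shares were 15.1% and 15.1%, a difference of 0.0476 points (-2.22 to 2.38). Among cells with at least 2000 UMIs the difference was -1.41 points (-3.14 to 0.339). The share is one of sorted, annotated cells and does not measure the number of ECs in the vessel wall.

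Between the libraries, 382 of 9285 genes tested in ECs were called higher in the diabetic library (4.11%) and 301 were called lower (3.24%), with a median log2 ratio of -0.01 over all genes. The shares of 4.11% and 3.24% are the background for each count of calls in a gene list below. When mitochondrial, ribosomal protein and haemoglobin genes were left out of the totals, the split was 491 higher and 225 lower. In the Cytl1-rich ECs alone, 448 of the 683 calls were made again in the same direction. Against the summed remaining annotated cells, 153 of the 683 genes passed the same fold in the same direction there and 59 passed it in the opposite one. That sum mixes classes in different proportions in the 2 libraries, with more smooth muscle and fewer macrophages in the diabetic one. For single genes, ratios of single classes are given beside it where a result turns on it. The list medians in the other cells come from this sum, without medians of single classes. The part of class mixture in these medians was not tested. For 25 of the called genes, 1 cell held more than 50% of the UMIs of the library in which the gene was higher.

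The genes described first are the 12 highest and the 12 lowest when ratios are ordered by whichever end of the interval lies closer to 1. Only genes with 30 or more EC UMIs entered, and in the library where a gene was higher it had to be found in at least 10% of ECs with no cell holding over 10% of its UMIs. Irf7, the transcription factor that amplifies interferon responses, was at 23.8 CPM in control and 89.0 CPM in diabetic ECs, 3.74-fold higher (2.37 to 6.09). Its ratio was 0.813 in all other cells, 1.12 in Fib-2, 4.62 in VSMCs-2 and 1.29 in macrophages. The immediate early genes Ier2 (175 and 420 CPM), Junb (506 and 1041 CPM) and Ier3 (448 and 858 CPM) and the cold-inducible RNA-binding proteins Cirbp (60.4 and 155 CPM) and Rbm3 (268 and 500 CPM) were also higher. Cirbp and Rbm3 were higher in the other cells too, with ratios of 2.26 and 1.60 there against 2.56 and 1.87 in ECs. Ier3 was not higher in their sum, with 0.975 there against 1.91 in ECs (1.71 to 2.15). Single classes differed for Ier3, with ratios of 1.45 in Fib-2, 1.01 in VSMCs-2, 1.00 in Fib-3, 0.818 in VSMCs-1, 0.661 in macrophages and 0.631 in Fib-1. Tpt1, which encodes translationally controlled tumour protein, was at 2369 and 4163 CPM (1.76), beside a ratio of 1.44 in the other cells. Ifi27l2a, an interferon-inducible gene of a small family, was at 190 and 368 CPM in ECs (1.93; 1.62 to 2.31), whereas its ratio was 0.465 over the other cells, 1.19 in Fib-2, 0.679 in VSMCs-2 and 0.752 in macrophages. Nfkbiz, which encodes the nuclear NF-kappaB cofactor IkappaB-zeta, was at 69.5 and 149 CPM (2.14). Its ratio was 0.842 over the other cells and 0.907 in macrophages. In the other classes it was above 1, at 1.45 in Fib-2, 1.11 in Fib-1, 1.70 in Fib-3, 1.08 in VSMCs-2 and 1.70 in VSMCs-1. The remaining genes of this group were Snf8, a subunit of the endosomal sorting complex ESCRT-II (2.67), Vamp2, a vesicle fusion protein (2.99), and Lsmem1, with lower bounds of 1.59 for each. All were above 1 in the sum of the other cells too, at 1.65 for Snf8, 1.90 for Vamp2 and 1.46 for Lsmem1.

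Lower in diabetic ECs were the antigen presentation genes H2-Aa, H2-Eb1 and H2-Ab1, described with their list below, and Tsc22d3, the glucocorticoid-induced leucine zipper gene. Tsc22d3 was at 477 CPM in control and 170 CPM in diabetic ECs (0.356; 0.294 to 0.429), and its ratio in the sum of the other cells was 0.370. In single classes the ratio varied, at 0.369 in Fib-1, 0.382 in Fib-2, 0.536 in VSMCs-1, 0.608 in VSMCs-2, 0.821 in macrophages and 0.893 in Fib-3. After thinning Tsc22d3 was detected in 37.3% and 12.3% of ECs and in 4.44% and 2.34% of VSMCs-2. Klk10, the secreted protease among the class-defining genes, was at 669 and 340 CPM (0.508; 0.442 to 0.583), and at 741 and 400 CPM in Cytl1-rich ECs. Serpina1d, a second gene of the alpha-1-antitrypsin family, was at 120 and 51.5 CPM (0.430). Hspa12b, an endothelial relative of the Hsp70 chaperones, was at 134 and 62.1 CPM (0.462). Fam107a, which encodes an actin-associated protein, was at 121 and 51.5 CPM (0.427), beside 1.45 in the other cells. C1galt1c1, the chaperone of O-glycan core synthesis, was at 70.4 and 26.9 CPM (0.382), the endosomal deubiquitinase gene Stambp at 39.3 and 10.5 CPM (0.268), and the minor spliceosome gene Snrnp48 at 102 and 39.8 CPM (0.389). Pdia4 (178 and 87.8 CPM, 0.492) belongs to the endoplasmic reticulum list below.

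**Figure D3:**
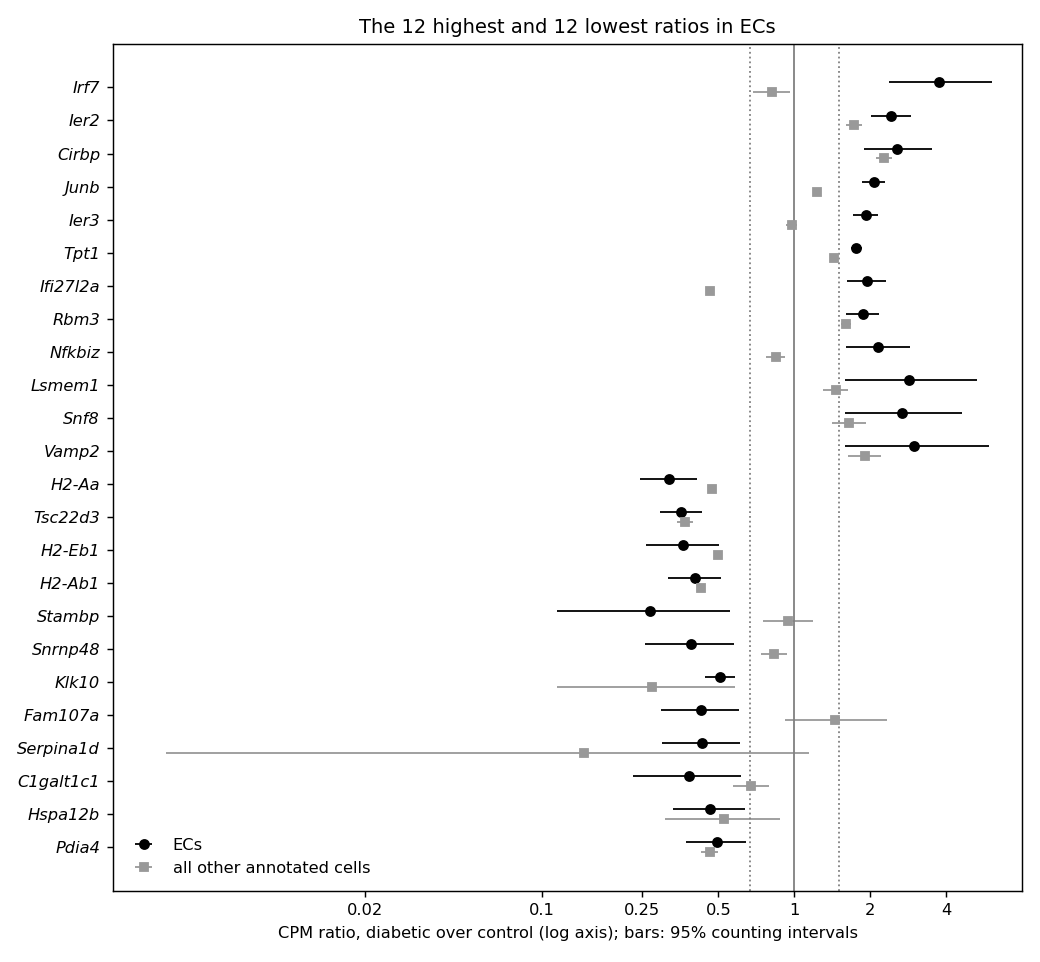
Ratios of CPM, diabetic over control, on a log axis for the 12 genes with the highest and the 12 with the lowest interval bounds, in ECs (black circles) and in all other annotated cells (grey squares), with 95% counting intervals as bars and dotted lines at 1.5-fold. Irf7, Ifi27l2a and Nfkbiz lie above 1 in ECs and below 1 in the sum of the other cells, whereas Tsc22d3 lies at 0.356 and 0.370. That sum mixes classes. In Fib-2 and macrophages the ratios were 1.12 and 1.29 for Irf7 and 1.19 and 0.752 for Ifi27l2a. They were 1.45 and 0.907 for Nfkbiz and 0.382 and 0.821 for Tsc22d3.

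Of the AP-1 subunits, 3 of 7 tested were called higher and none lower, beside 4.11% of all tested genes higher and 3.24% lower. The list's median log2 ratio was 0.73 in ECs and 0.14 in the other cells. Junb, a Jun family subunit, was called at 2.06 (1.85 to 2.29), Fosb at 577 and 959 CPM (1.66) and Fosl2 at 37.5 and 62.1 CPM (1.65), a call that was lost in the Cytl1-rich ECs (1.47; 0.891 to 2.41). Fos itself was not called, at 3876 and 4381 CPM (1.13; 1.08 to 1.18), and neither were Jun (1.45; 1.25 to 1.67) and Jund (1.33). Per cell, AP-1 transcripts took a median of 0.116% of the UMIs of control ECs and 0.365% of those of diabetic ECs. After thinning, Junb was detected in 25.7% of control and 42.7% of diabetic ECs and in 28.8% and 34.7% of VSMCs-2. Junb was thus no EC marker, and its rise was also seen in Cytl1-rich ECs alone (462 and 971 CPM, 2.10). Its ratio was 1.23 in the sum of the other cells. It was above 1 in each of the 6 other classes with at least 50 cells in each library, from 1.26 in macrophages to 1.69 in VSMCs-1.

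The other immediate early genes were also called in 1 direction. Of 38 tested, 12 were called higher and none lower, beside 4.11% and 3.24% of all tested genes. Their median log2 ratio was 0.53 beside 0.22 in the other cells. Ier2, at 2.41 in ECs, was higher outside them as well. Its ratio was 1.72 in the sum of the other cells and ran from 1.19 in VSMCs-1 to 2.11 in Fib-1. Dusp1, a phosphatase that ends MAP kinase signalling, was at 253 and 392 CPM (1.55; 1.32 to 1.82), and Gadd45b, a stress-response gene, at 254 and 427 CPM (1.68; 1.43 to 1.97). Socs3, an inhibitor of cytokine receptor signalling, was at 68.6 and 135 CPM (1.96) and Csrnp1 at 43.9 and 92.5 CPM (2.11). Ier5 (1.66), Tob1 (1.61) and the small Maf factor Maff (6 and 24 UMIs, 5.12) were called as well. Nr4a3, Dusp2 and Dusp5 were called on 2, 2 and 1 control UMIs against 8, 13 and 9 diabetic UMIs.

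NF-kappaB is held in the cytoplasm by IkappaB proteins and, once released, binds short kappaB sites in the promoters of cytokines, chemokines and adhesion molecules. Of 24 NF-kappaB targets and chemokines tested, 6 were called higher and 1 lower, beside 4.11% and 3.24% of all tested genes. The list's median log2 ratio was 0.30 in ECs and -0.38 in the sum of the other cells, which mixes classes. The motif GGAAATTCC, chosen after the values were seen, was searched on both strands in the 250 bases before the start of each gene in RefSeq (GRCm38.p6), and stood in 94 of 32851 promoter windows (0.286%). Of the 25 genes in the list 18 had a promoter entry, and 6 of these held the motif, namely Nfkbia, Tnfaip3, Cxcl1, Cxcl2, Cxcl10 and Icam1. Ier3 and Dusp6 held it among 30 entries for the other immediate early genes. Of the genes holding it, 4 were called higher in ECs, and their promoters are printed 5′ to 3′ on the gene's strand with the motif or its reverse complement in capitals, without bases that fall in annotated exons. The match describes the letters and shows no binding.
Icam1, chr9:21015690-21015939, plus strand: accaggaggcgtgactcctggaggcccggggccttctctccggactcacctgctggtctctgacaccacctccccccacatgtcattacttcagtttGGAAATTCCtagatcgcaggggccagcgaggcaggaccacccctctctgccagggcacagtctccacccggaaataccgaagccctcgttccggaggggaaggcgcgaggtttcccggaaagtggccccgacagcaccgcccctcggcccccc
Cxcl1, chr5:90890995-90891240, plus strand: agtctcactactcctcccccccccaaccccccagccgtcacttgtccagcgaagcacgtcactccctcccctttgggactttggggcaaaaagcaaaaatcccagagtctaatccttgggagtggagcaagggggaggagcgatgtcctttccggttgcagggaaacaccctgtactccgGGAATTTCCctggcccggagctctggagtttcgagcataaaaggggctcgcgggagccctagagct
Cxcl10, chr5:92348890-92349139, minus strand: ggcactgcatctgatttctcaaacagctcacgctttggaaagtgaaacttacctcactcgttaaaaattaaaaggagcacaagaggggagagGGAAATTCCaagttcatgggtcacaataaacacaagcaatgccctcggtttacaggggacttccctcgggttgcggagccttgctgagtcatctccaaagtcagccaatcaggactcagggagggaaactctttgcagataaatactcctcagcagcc
Ier3, chr17:35821463-35821683, plus strand: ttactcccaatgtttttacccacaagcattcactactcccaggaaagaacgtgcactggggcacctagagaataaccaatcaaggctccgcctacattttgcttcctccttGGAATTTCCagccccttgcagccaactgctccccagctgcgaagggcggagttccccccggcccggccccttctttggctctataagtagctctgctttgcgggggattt

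The site in Icam1 begins at position -153 from the RefSeq start. A stretch after that start was not found near the beginning of a GENCODE Icam1 transcript, so the position rests on RefSeq alone. Icam1, the leukocyte integrin ligand, was at 389 CPM in control and 616 CPM in diabetic ECs (1.58; 1.39 to 1.80). Its ratio was 0.557 over the other cells, 1.08 in Fib-2, 1.40 in Fib-1, 0.595 in VSMCs-2 and 0.743 in macrophages. After thinning it was detected in 27.7% and 39.1% of ECs against 2.22% and 0.935% of VSMCs-2. The higher level was present in the Cytl1-rich ECs, at 385 and 642 CPM (1.67; 1.45 to 1.92), while in the few Cytl1-low ECs it was at 426 and 486 CPM (1.14; 0.774 to 1.69). The neutrophil chemokine Cxcl1 (site at -70) was at 121 and 225 CPM (1.86; 1.48 to 2.34). It was higher in the Cytl1-rich ECs (117 and 257 CPM, 2.20) and lower in the Cytl1-low ECs (158 and 63.4 CPM, 0.402; 0.158 to 0.954), there on 17 and 9 UMIs. The T cell chemokine Cxcl10 (site at -158) was at 10.1 and 37.5 CPM (3.72). Cxcl12 was at 124 and 198 CPM (1.59), but 1 diabetic cell held 35.5% of its UMIs, and without the top cell of each library the ratio was 1.27. Bcl3, a nuclear IkappaB protein, was called on 4 and 11 UMIs (3.52).

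Not all of the list moved with Icam1. Vcam1, the other major endothelial adhesion molecule, was at 1156 CPM in control and 974 CPM in diabetic ECs (0.843; 0.772 to 0.921) and was not called, and its thinned detection was 42.3% in both libraries. Nfkbia, the feedback inhibitor that holds the kappaB motif, was at 1047 and 1313 CPM (1.25). Ccl7, a monocyte chemokine, was lower at 27.4 and 10.5 CPM (0.384), and Ccl2 had 10 and 2 UMIs. Of 13 leukocyte adhesion genes tested, Icam1 alone was called higher and Bst1, a surface ADP-ribosyl cyclase, alone lower (40.3 and 9.37 CPM, 0.233), with a median log2 ratio of -0.25. The endothelial selectin gene Sele had only 2 UMIs in each library, and Selp, the P-selectin gene, was at 177 and 220 CPM (1.25; 1.01 to 1.53).

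Of 26 interferon response genes tested, 4 were called higher and none lower, beside 4.11% and 3.24% of all tested genes. The list's median log2 ratio was -0.01 in ECs beside -0.56 in the sum of the other cells. Besides Irf7, the calls were Rtp4, at 42.1 and 72.6 CPM (1.73; 1.16 to 2.58), Ifi44, at 8 and 20 UMIs (3.20), and the antiviral gene Rsad2, at 5 and 28 UMIs (7.17). For Rsad2, 35.7% of the diabetic UMIs were in 1 cell and the ratio in Cytl1-rich ECs was 1.38 (0.318 to 6.01). The abundant members Ifitm3, at 2585 and 3072 CPM (1.19), and Isg15, at 124 and 170 CPM (1.36), were not called. Irf7 was detected in 3.21% of control and 9.09% of diabetic thinned ECs and in 0.403% and 0.234% of VSMCs-2.

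MHC class II genes showed the largest median difference of the 30 lists, with a median log2 ratio of -1.31 in ECs. It was -1.14 in the sum of the other cells. Of 7 class II genes tested, 6 were called lower, beside 3.24% of all tested genes. Cd74, the invariant chain that guides class II molecules, went from 883 to 188 UMIs (808 and 220 CPM, 0.273; 0.232 to 0.319), and 61.2% of the diabetic UMIs were in 1 cell. H2-Aa was at 278 and 89.0 CPM (0.320), H2-Eb1 at 155 and 56.2 CPM (0.364) and H2-Ab1 at 264 and 107 CPM (0.403). For each of these, 1 cell held a large part of the diabetic UMIs, at 35.5%, 25% and 42.9%. With the top cell of each gene left out in each library, the list median was -1.77. The peptide exchange genes H2-DMa (0.537) and H2-DMb1 (0.621) were lower too, and the class II transactivator Ciita had 1 UMI in each library. In the macrophage class Mac, Cd74 was at 22727 and 16032 CPM. After thinning, H2-Aa was detected in 19.2% and 5.91% of ECs and in 4.03% and 0.584% of VSMCs-2, so it was lower in the libraries' smooth muscle cells as well. C1qa fell beside them in ECs, from 77.8 to 8.20 CPM (0.105). There were 10.4 and 26.9 Cd74 UMIs per C1qa UMI in ECs, against 3.09 and 4.02 in macrophages, 2.79 and 5.15 in VSMCs-2 and 78.7 and 85.4 in the class labelled MoDC. The value of 26.9 in diabetic ECs rests on 7 C1qa UMIs and on 188 Cd74 UMIs, 61.2% of the latter in 1 cell. The part of RNA from other cells in this difference was not tested.

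MHC class I was closer to the background. Of 19 genes tested 1 was called, the non-classical gene H2-T23 at 158 and 78.5 CPM (0.496; 0.368 to 0.661), and the median log2 ratio was -0.15 beside -0.62 in the other cells. B2m, the shared light chain, was at 6115 and 4388 CPM (0.718; 0.689 to 0.747) and the heavy chain gene H2-D1 at 4080 and 3041 CPM (0.745; 0.710 to 0.782), below 1 but within the 1.5-fold limit. Class I genes are near-identical over parts of their length, and reads may be divided among them.

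Chaperones and disulfide isomerases fold secreted proteins in the endoplasmic reticulum, and many of their promoters share the stress response element. Of 21 such genes tested 9 were called lower and none higher, beside 3.24% and 4.11% of all tested genes. Their median log2 ratio was -0.33 in ECs and -0.52 in the other cells. The element, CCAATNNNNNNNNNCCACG on either strand, stood in 37 of 32851 promoter windows (0.113%) and in 7 of the 19 list members with an entry, namely Hspa5, Hsp90b1, Pdia6, Calr, Canx, Dnajc3 and Creld2. It too was chosen after the values were seen. The 3 abundant genes called lower are shown with the element or its reverse complement in capitals, which begins at -65 in Hspa5, at -212 and, on the opposite strand, at -107 in Hsp90b1, and at -98 in Pdia6. In Hspa5 the element lies in the first exon of a GENCODE transcript that begins further upstream, so the element alone is shown, and bases in annotated exons are left out for the others.
Hspa5, chr2:34772025-34772043, plus strand: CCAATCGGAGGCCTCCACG
Hsp90b1, chr10:86705510-86705694, minus strand: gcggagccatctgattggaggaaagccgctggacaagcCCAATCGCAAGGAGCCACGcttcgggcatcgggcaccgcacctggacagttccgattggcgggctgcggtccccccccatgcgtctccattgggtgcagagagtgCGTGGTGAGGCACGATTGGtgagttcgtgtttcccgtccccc
Pdia6, chr12:17266339-17266544, plus strand: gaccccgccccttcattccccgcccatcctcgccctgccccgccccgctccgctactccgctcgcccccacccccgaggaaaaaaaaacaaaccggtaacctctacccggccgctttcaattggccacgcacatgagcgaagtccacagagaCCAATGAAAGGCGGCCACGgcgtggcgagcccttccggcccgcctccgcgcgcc

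Hspa5, the lumenal Hsp70 chaperone BiP, was at 1046 CPM in control and 636 CPM in diabetic ECs (0.608; 0.548 to 0.674), and at 0.688 after thinning, within the 1.5-fold limit. Hsp90b1, the lumenal Hsp90, was at 732 and 460 CPM (0.629; 0.556 to 0.710), and the disulfide isomerase gene Pdia6 at 572 and 335 CPM (0.586; 0.507 to 0.675). The ratio of Hspa5 was also below 1 in Fib-2 (0.485), VSMCs-2 (0.520) and macrophages (0.716). The cochaperone genes Dnajb11 (184 and 109 CPM, 0.592) and Sdf2l1 (0.546) and the stress-induced genes Creld2 (0.469), Hyou1 (13 and 2 UMIs, 0.197) and Trib3 (0.549) were also called lower. Calr, the lectin chaperone calreticulin, which holds the element, was at 812 and 623 CPM (0.767) and was not called, and the stress transcription factor gene Xbp1 was at 59.5 and 64.4 CPM (1.08). Serpinh1, the collagen chaperone of the same compartment, was at 762 and 437 CPM (0.573; 0.506 to 0.648). Ribosomal protein transcripts took a larger share in the diabetic ECs (22.2% against 19.0%), and Hspa5, Hsp90b1 and Pdia6 were again called lower with ribosomal protein, mitochondrial and haemoglobin genes left out of the totals. Creld2 lost its call under that setting (0.491) and under 3 others, among them thinning (0.567).

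The lipid handling genes differed in direction between the ranges of ECs. Over all ECs, 6 of 13 tested were called higher and none lower, beside 4.11% and 3.24% of all tested genes. Their median log2 ratio was 0.73 beside -0.01 in the other cells. Fabp4, a fatty acid carrier of capillary endothelium and fat cells, was at 1109 and 1758 CPM (1.59; 1.47 to 1.71), the fatty acid transporter gene Cd36 at 78.7 and 152 CPM (1.94), Gpihbp1 at 25.6 and 135 CPM (5.26) and the lipase gene Lpl at 22.9 and 45.7 CPM (2.0). Scarb1, the HDL receptor, was at 26.5 and 49.2 CPM (1.85), and Pparg had 3 and 11 UMIs (4.69). In the Cytl1-rich ECs none of 10 was called higher and 1 was called lower. Fabp4 in that range was at 731 and 369 CPM (0.505; 0.437 to 0.583) and Cd36 at 36.5 and 22.5 CPM (0.615; 0.319 to 1.14). In the Cytl1-low ECs Fabp4 was at 4559 and 8720 CPM (1.91) and Cd36 at 463 and 803 CPM (1.73). Thinned Fabp4 detection was 23% and 19.5% in ECs. It was 28.6% and 19.6% in VSMCs-2 and 22.9% and 15.7% in VSMCs-1, but 2.98% and 3.94% in Fib-2 and 1.41% and 2.51% in Mac, so Fabp4 was not spread evenly over the classes. Adipocyte markers had 3 UMIs in control and 94 in diabetic ECs, from 8 diabetic cells, with 50% of them in 1. The part of vessel mixture or adherent fat in these values was not tested.

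**Figure D4:**
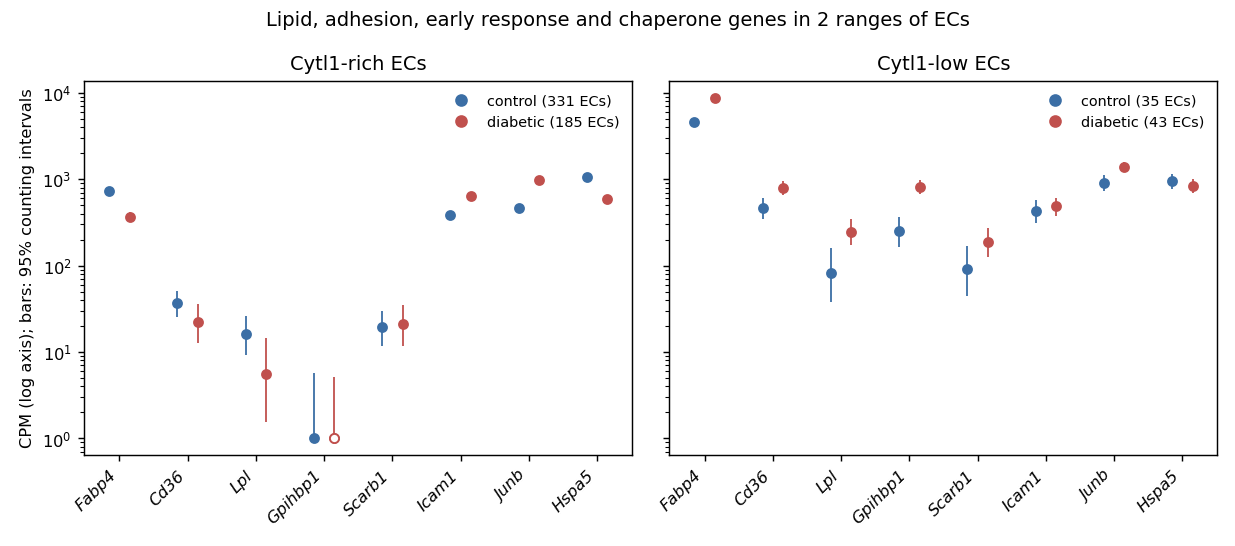
CPM on a log axis in Cytl1-rich ECs (left, 331 control and 185 diabetic) and Cytl1-low ECs (right, 35 and 43), control in blue and diabetic in red, with 95% counting intervals as bars and an open circle for 0 UMIs, drawn at 1. Fabp4 is lower in the diabetic library in the Cytl1-rich range (731 and 369 CPM) and higher in the Cytl1-low range (4559 and 8720 CPM), whereas Junb is higher in both.

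Other genes of the Cytl1-low range differed between the libraries as well. Selp was at 111 and 387 CPM there (3.48) and at 184 and 187 CPM in Cytl1-rich ECs, and Ackr1, the chemokine receptor of venules, was at 27.8 and 148 CPM (5.32). For Ackr1 this ratio depends on the Cytl1 limit, since Cytl1-rich ECs held 20 control and 0 diabetic UMIs, all ECs held 23 and 21, and in capillary-marker cells the ratio was 0.409 (0.195 to 0.872). Flt1, the decoy VEGF receptor, was at 130 and 345 CPM in this range (2.66). Gja4, the connexin 37 gene, was lower there, at 297 and 113 CPM (0.380). In the capillary-marker cells alone Fabp4 differed little, with a ratio of 1.06. The Cytl1-low range holds 35 and 43 cells of mixed kinds, so differences within cells and differences in mixture cannot be told apart in its ratios.

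The core endothelial lists held few calls. Of 16 junction genes and 12 Notch pathway genes tested over all ECs, none was called in either direction, with medians of -0.01 and 0.23 on the log2 scale. In the Cytl1-rich ECs alone, 2 of 15 junction genes were called higher and again no Notch pathway gene was called. Of 16 nitric oxide and flow genes, 2 were called lower in that range. Cldn5 was at 592 and 716 CPM (1.21; 1.08 to 1.35) and Gja5 at 457 and 345 CPM (0.755; 0.652 to 0.874). Of 16 genes of nitric oxide and flow response, Ptgs1, the constitutive cyclooxygenase, was called lower at 296 and 184 CPM (0.620; 0.509 to 0.753). Nos3, the endothelial nitric oxide synthase, was at 292 and 261 CPM (0.895; 0.751 to 1.07). The flow-responsive factors Klf2 (431 and 549 CPM, 1.27) and Klf4 (468 and 685 CPM, 1.46; 1.30 to 1.65) were higher without passing the fold. Of 13 haemostasis genes, the thrombin receptor gene F2r was called higher at 104 and 169 CPM (1.62; 1.26 to 2.09) and the coagulation inhibitor gene Tfpi lower at 52.1 and 31.6 CPM (0.606; 0.369 to 0.975), a call that 9 of 14 alternative settings lost. Thrombomodulin (Thbd) was at 227 and 164 CPM (0.723), and the list's median log2 ratio was -0.43.

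Growth factor receptors and matrix genes held 2 or 3 calls in a list. Of 12 VEGF and angiopoietin receptors and ligands tested, Kdr, the main VEGF receptor, was called at 24 and 34 UMIs (1.81; 1.04 to 3.20), with a ratio of 0.629 in the Cytl1-rich ECs (0.171 to 1.96) and of 1.00 after thinning. The lymphatic VEGF receptor Flt4 was called at 15 and 43 UMIs (3.67; 2.0 to 7.11), and its ratio was 2.91 in the Cytl1-rich ECs. Tie1 was at 333 and 272 CPM (0.816) and Tek, the angiopoietin receptor, at 356 and 320 CPM (0.898). Of 17 basement membrane genes, Lama4, the laminin chain of vessels, was lower at 38 and 11 UMIs (0.371; 0.171 to 0.740), as was Serpinh1. Col15a1 was called higher on 6 and 14 UMIs, 78.6% of the latter in 1 cell, and its ratio without the top cell of each library was 0.768. Of 18 TGF-beta and BMP genes, Bmp6 was higher at 202 and 308 CPM (1.52; 1.27 to 1.83), beside 0.779 in VSMCs-2, and Tgfb1 at 24.7 and 44.5 CPM (1.80).

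**Figure D5:**
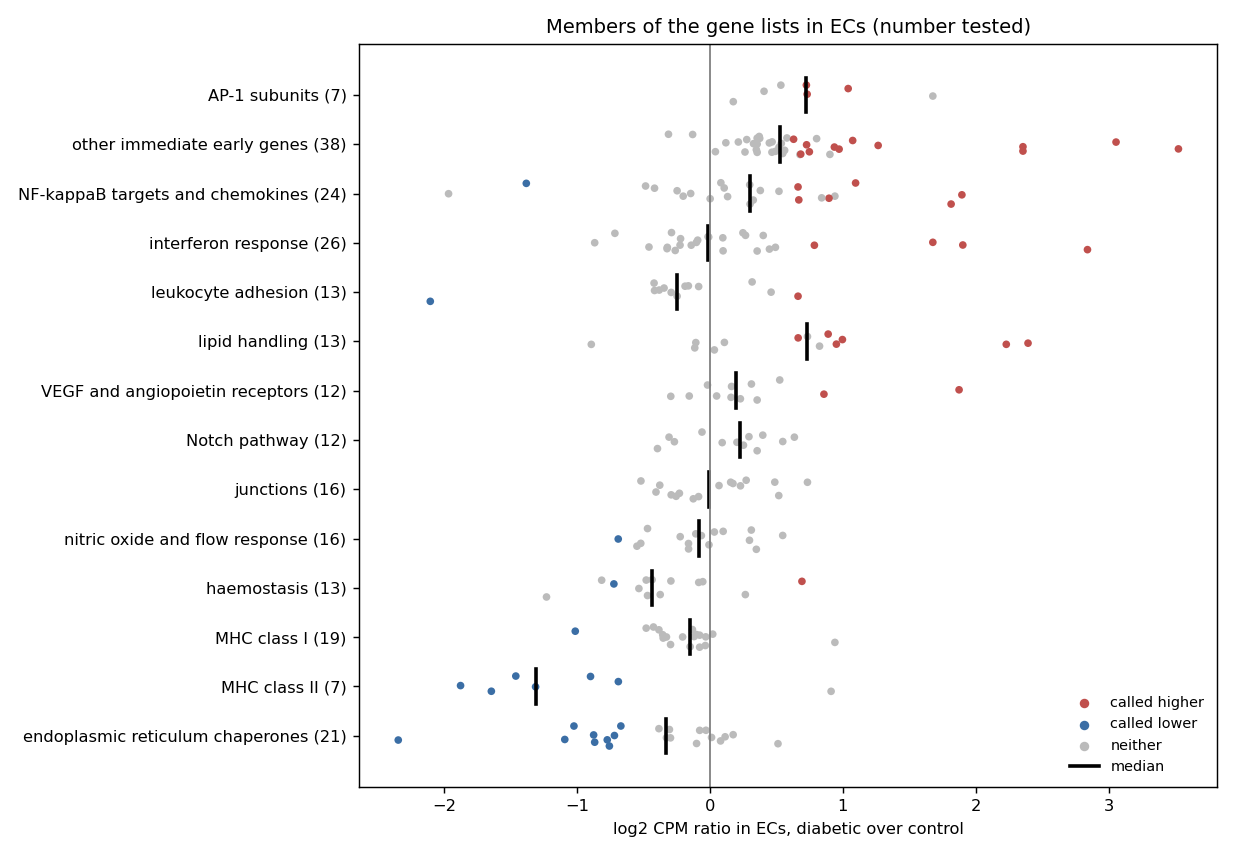
Log2 ratios of CPM in ECs, diabetic over control, for each tested member of 14 gene lists (the number tested is in brackets), with genes called higher in red, called lower in blue, others in grey, and a bar at the list median. AP-1 subunits (median 0.73) and lipid handling genes (0.73) lie to the right of 0, MHC class II genes (-1.31) to the left, and junction genes (-0.01) on both sides.

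The remaining lists held 2 calls or fewer in a direction. Of 23 antioxidant genes Hmox1, the haem oxygenase, was higher at 24.7 and 51.5 CPM (2.09; 1.26 to 3.5), although its ratio in Cytl1-rich ECs was 1.44 (0.799 to 2.60), and the glutathione synthesis gene Gclc was higher at 12 and 23 UMIs (2.45). Of 8 NADPH oxidase and RAGE axis genes, S100a8 and S100a9 were called higher, and 97.7% of the diabetic S100a8 UMIs were in 1 cell. Of 9 insulin-like growth factor genes Igfbp5 and Igfbp7 were higher, and Insr and Igfbp6 lower, but 49.4% of the diabetic Igfbp5 UMIs were in 1 cell and its ratio was 0.566 in Cytl1-rich ECs. Of 15 glucocorticoid and clock genes Arntl was higher and Tsc22d3 lower. Among 20 genes of endothelial to mesenchymal transition Snai1 was called higher and Zeb2 lower, and among 12 Kruppel-like and SOX factors none was called. The 21 glycolysis and hypoxia genes held a single call, Ankrd37, with 0 control and 10 diabetic UMIs. Nts, the neurotensin gene, was higher among 10 vasoactive peptide genes, at 44 and 86 UMIs (2.50), from 1.91% and 3.07% of ECs. All 86 diabetic Nts UMIs were in the 8 lymphatic-marker ECs, and Cytl1-rich ECs held 3 and 0. The other lists held Mvk among 18 cholesterol genes, Hspa1b (higher) and Stip1 (lower) among 18 cytosolic and mitochondrial chaperones, Cox5a among 22 respiratory chain genes, mt-Atp8 among 13 genes of the mitochondrial genome, Hist1h1c among 8 histone genes, and Top2a and Cdkn1a among 10 cell cycle genes, all higher except Stip1.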

How the data were processed

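Per the labels, each library came from the pooled aortae of 4 mice and was made with the 10x Genomics 3' v2 chemistry. In the deposited matrices each entry is a raw UMI count of a gene symbol in a barcode, and per the submitters' processing notes the tools were Cell Ranger 3.1.0, with the build mm10, and Partek. The role of each, the barcode filter, doublet treatment and the way classes were assigned are not given in the sources used here. No doublet caller was run. The authors' deposited annotation gives a class to 5584 barcodes in 13 classes, and the members are the 594 classed as ECs. All 594 were used, with no further filter, and 366 and 228 of them form the control and diabetic sums.

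UMIs of ECs were summed per library and divided by their total (CPM). With 1 library in each group there is no test of the groups. Ratios carry exact conditional binomial intervals and shares Clopper-Pearson intervals at 95%, differences of shares Newcombe intervals. All cover counting error only. Of 19357 genes in either matrix, 9285 had at least 10 UMIs over both EC sums. A zero was set against a floor of 3 UMIs where a bound was needed. The code for ratios was tested on simulated data. Promoters are RefSeq windows of GRCm38.p6, and gene positions come from GENCODE on GRCm38, the assembly also called mm10. Python 3.11.15, numpy 2.4.6, scipy 1.17.1, pandas 2.3.3 and R 4.3.3 with edgeR 4.0.16 (normalization factors only) were used.

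The genes described are the 4 EC markers, the 15 genes highest over the next class, the 12 highest and 12 lowest ratios, and called and defining members of 30 gene lists. The members, the lists and the tests were chosen with earlier results of these data known. The Cytl1 limit, the Cytl1 and haemoglobin alternatives and both promoter motifs were chosen after the data were seen. Alternatives were other totals, equal weight for each cell, thinning, other count minimums, a larger fold and subsets of ECs.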

Additional observations from a re-analysis of the deposited data

Results flagged for a closer look

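Of the named genes called higher in diabetic ECs, 11 were lower past the same fold in the sum of all other annotated cells. The ratio of the 2 ratios was 4.16 for the interferon-inducible gene Ifi27l2a, 3.15 for Rtp4, 2.84 for the adhesion gene Icam1, 2.81 for the chemokine gene Cxcl1 and 3.70 for Bmp6. It was 5.35 for the fatty acid transporter gene Cd36, 4.70 for Lpl, 5.43 for Hmox1 and 4.13 for Igfbp5. In the Cytl1-rich ECs alone, however, the diabetic over control ratio was 0.615 for Cd36, 0.346 for Lpl and 0.566 for Igfbp5. Hmox1 lost its call there (1.44), whereas Ifi27l2a (1.88), Icam1 and Cxcl1 were higher in that range too. These are ratios of counts between libraries, with no test over animals. The sum of other cells holds more smooth muscle and fewer macrophages in the diabetic library. Within single classes Icam1 had ratios of 1.08 in Fib-2 and 1.40 in Fib-1, so its opposite direction was not seen in every class. The same held for Ifi27l2a, with ratios of 1.19 in Fib-2 and 1.05 in Fib-3. S100a8 (45.7) and S100a9 (37.7), calprotectin genes of neutrophils, had 97.7% and 100% of their diabetic UMIs in 1 EC.

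Among control barcodes without a class whose gene number and mitochondrial share lay within the ranges of the library's annotated cells, 454 of 902 had at least 2 of the 4 EC markers, against 0 of 9 in the diabetic library. In the 454, Cytl1 was at 1955 CPM and Pecam1 at 671 CPM, but Cldn5 was at 43.3 CPM and Klk10 at 47.6 CPM, against 592 and 669 CPM in control ECs. The macrophage genes Cd74 and C1qa were at 7476 and 2448 CPM in them, the fibroblast gene Dcn at 6817 CPM and the smooth muscle gene Acta2 at 5592 CPM. The other 448 barcodes had similar levels, with 1681 CPM of Cytl1, 44.5 CPM of Cldn5 and 7712 CPM of Cd74. Median mitochondrial shares were 6.32% and 6.36%, against 2.66% in control ECs. What these barcodes are was not tested, and none was counted among the ECs.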

How the results depend on the processing

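No paired analysis was possible because each group is 1 library. Counts of genes called higher ranged from 255 to 491 and of genes called lower from 225 to 360 over the alternatives, except after thinning (172 and 178) and with a 2-fold limit (231 and 158). Thinning left 5878 genes to test, and 87 of its higher and 70 of its lower calls were shared with the unthinned counts. The EC share difference was 0.0476 points without the smooth muscle classes and -11.7 points with marker-positive unclassified barcodes added. Over up to 14 alternatives for each named gene, 692 values kept their side of the limit, 74 lost it and 12 reversed. With ECs of at least 2000 CPM of Cytl1 only, the ratios reversed for Fabp4 (0.505), Cd36 (0.615), Lpl (0.346), Kdr (0.629) and Igfbp5 (0.566), and the lipid handling median became -0.53. With ECs lacking Cytl1 left out they reversed for Fabp4 (0.788), Lpl (0.822) and Igfbp5 (0.987), and that median became -0.12. Igfbp5 was 0.638 without ECs having 2 or more lymphatic markers. Col15a1 was 0.520 after thinning, 0.768 without the top cell and 0.968 without the 5% of ECs with most UMIs. The cause of these changes was not tested. Depth limits genes with few UMIs. Thinning left out 23 control and 8 diabetic ECs.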
